A study of Mus musculus with 62 samples.

Results

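Most proteins of the respiratory chain are encoded in the nucleus, made in the cytosol and imported into mitochondria. Complex I takes electrons from NADH, complex II from succinate, complex III passes them to cytochrome c and complex IV to oxygen, and complex V, the ATP synthase, uses the proton gradient built on the way. The diaphragm contracts with every breath and is among the more oxidative skeletal muscles, so these transcripts are abundant in it. The genes described here are the nuclear-encoded oxidative phosphorylation genes, chosen by symbol alone: those that start with Nduf followed by a, b, c, s or v, the 4 succinate dehydrogenase genes Sdha to Sdhd, and those that start with Uqcr, with Cox and a digit of 4 to 8, or with Atp5, leaving out symbols marked as pseudogenes. The rule found 92 of the 47643 genes listed. They comprise 36 complex I subunits, 7 complex I assembly factors (Ndufaf1 to Ndufaf7), 4 subunits of complex II, 8 of complex III, 14 of complex IV, 15 of complex V, and 8 relatives of complex IV or V genes.

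The diaphragms of 62 mice were profiled by RNA-seq, 1 library per mouse. CAC mice carried the cachectic patient-derived melanoma xenograft MAST360B, NCAC mice the non-cachectic melanoma xenograft MAST552A, and Con mice were mock injected with PBS. The female mice were 2 months old by the labels, and muscles were taken 2, 4, 6 and 8 weeks post implantation, with 5 mice in each of the 12 conditions except CAC at 8 weeks, which had 7. The labels name the strain C57BL6/J whereas the study's methods describe NCI Ath/nude mice, so the strain is given here as uncertain; each tumor type was 1 xenograft line, so the tumor line and the cachectic state cannot be told apart. All values below are TPM, a level corrected for transcript length and library total, rescaled to a total of 1e+06 after the 37 genes encoded by mitochondrial DNA (symbols starting with mt-) were removed. Genes had to reach 1 TPM in 5 or more mice, which left 14670 genes and 90 of the 92 members; Cox7b2 and Cox8c did not pass. "Called" means an adjusted p under 0.05 in limma, with Benjamini-Hochberg adjustment over all genes tested in that comparison, and log2 fold changes are on the log2(TPM + 1) scale. Bulk RNA cannot tell fewer muscle fibers from less of these RNAs per fiber.

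In 4 libraries (CAC mice 3 and 4 and NCAC mouse 5 at 2 weeks, and CAC mouse 3 at 8 weeks) 15069 to 16389 genes were above 0, against 17909 to 19057 in the other 58. The mt- genes took 54.4% to 61.5% of the deposited TPM in those 4 libraries and 32.5% to 50.1% in the others, and the members took 10.8% to 15.1% of the rescaled TPM against 6.53% to 9.95%. Counts and medians that rest on them, and the fold changes of the genes described most closely at 8 weeks, are given with and without them. Skeletal muscle markers were abundant in every library: the fast fiber troponin Tnnt3 lay between 15158 and 30133 TPM over the 62 mice. Liver genes varied widely at 2 weeks, with albumin (Alb) reaching 23602 TPM in 1 library.

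In Con mice the mean levels of the tested members ran from 3.57 to 4435 TPM. Cox6a2, the striated muscle form of a complex IV subunit, was highest, followed by the ATP synthase subunit Atp5a1 (3990 TPM) and the muscle form Cox8b (3902 TPM), and Atp5b, which carries the catalytic sites of the ATP synthase, was at 3642 TPM. The median Con level was 560 TPM for complex I subunits, 1079 for complex II, 1331 for complex III, 1394 for complex IV and 1081 for complex V. The complex I assembly factors, which are not part of the finished enzyme, had a median of 36.1 TPM.

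The promoters of 5 members on which the results turn are shown here, since each pair of paralogs below parted in level. They are RefSeq sequences of GRCm38.p6, from 250 bases before to 50 bases after the annotated start, on the strand of the gene. Capitals mark GCGCA and GCGC parted by 1 base, the core of the binding site of NRF1 (a nuclear activator of respiratory chain genes), or the letters TCAAGGTCA, that of the estrogen-related receptors (ERR), on either strand. Uqcrc1, a core subunit of complex III, is at chr9:108936398-108936697 (plus strand). Cox7a1 and Cox7a2, the muscle and the general form of the same complex IV subunit, are at chr7:30183921-30184220 (plus) and chr9:79759804-79760103 (minus). Atp5g2 and Atp5g3, paralogous genes for the c subunit of the ATP synthase rotor, are at chr15:102670998-102671297 (minus) and chr2:73911277-73911576 (minus).
Uqcrc1: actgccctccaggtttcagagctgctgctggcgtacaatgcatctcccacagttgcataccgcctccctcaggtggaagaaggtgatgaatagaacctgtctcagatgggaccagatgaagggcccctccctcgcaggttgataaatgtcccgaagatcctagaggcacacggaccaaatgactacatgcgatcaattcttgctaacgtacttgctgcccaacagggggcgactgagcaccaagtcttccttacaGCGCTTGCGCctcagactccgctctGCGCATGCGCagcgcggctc
Cox7a1: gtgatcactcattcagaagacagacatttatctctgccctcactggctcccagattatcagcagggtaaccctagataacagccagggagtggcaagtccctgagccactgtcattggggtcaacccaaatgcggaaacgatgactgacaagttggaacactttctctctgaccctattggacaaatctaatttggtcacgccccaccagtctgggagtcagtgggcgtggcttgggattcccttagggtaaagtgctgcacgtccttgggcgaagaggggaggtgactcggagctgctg
Cox7a2: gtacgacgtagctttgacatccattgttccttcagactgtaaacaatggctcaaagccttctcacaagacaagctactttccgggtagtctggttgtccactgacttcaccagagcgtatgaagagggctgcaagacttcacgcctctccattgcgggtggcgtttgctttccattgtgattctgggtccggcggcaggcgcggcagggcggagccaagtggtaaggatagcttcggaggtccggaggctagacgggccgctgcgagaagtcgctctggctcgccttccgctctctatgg
Atp5g2: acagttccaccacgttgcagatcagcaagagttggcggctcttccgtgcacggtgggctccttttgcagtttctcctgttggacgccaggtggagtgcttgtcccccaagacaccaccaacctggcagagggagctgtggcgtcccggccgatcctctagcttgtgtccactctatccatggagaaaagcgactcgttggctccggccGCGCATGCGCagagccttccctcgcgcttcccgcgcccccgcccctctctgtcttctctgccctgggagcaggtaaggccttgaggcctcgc
Atp5g3: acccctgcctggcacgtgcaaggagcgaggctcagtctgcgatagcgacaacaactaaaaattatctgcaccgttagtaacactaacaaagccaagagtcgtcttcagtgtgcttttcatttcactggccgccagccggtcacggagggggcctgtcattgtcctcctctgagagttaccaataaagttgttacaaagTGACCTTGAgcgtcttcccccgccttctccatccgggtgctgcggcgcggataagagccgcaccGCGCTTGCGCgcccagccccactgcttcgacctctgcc
The Uqcrc1, Atp5g2 and Atp5g3 windows held the NRF1 letters and the Atp5g3 window also the ERR letters, whereas neither Cox7a window held them. Of the 92 members, 73 matched a promoter in the table. The NRF1 letters stood in 19 of them (26.0%), compared with 10.6% of the 10749 tested genes that had a promoter and 5.19% of all 27025. The letters CCGGAAG of GABPA sites stood in 23.3% of the members against 18.1% of the tested genes, the ERR letters in 2.74% against 0.354%, and the YY1 letters AAGATGGCG in 9.59% against 3.26%. Among members lower in CAC than in Con mice at 8 weeks, 5 of 21 held the NRF1 letters, and among the other tested members 14 of 51 did. A match is a description of these letters only.

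At 2 and 4 weeks at most 1 member was called in CAC mice, against Con or NCAC mice, once the libraries that stood apart were left out. At 2 weeks 51 of the 90 members were called higher in CAC than in Con mice and 0 lower, where 29.1% of all genes tested were called and 3.02% were called higher. The largest changes were those of Cox8b (0.64 ± 0.17 SE, adjusted p = 0.01), Ndufa4 (0.63 ± 0.20, adjusted p = 0.0222) and Atp5o (0.62 ± 0.18, adjusted p = 0.013), all by limma. Without the 4 libraries named above, 0 members were called (10 at an unadjusted p under 0.05), the median log2 fold change of the members went from 0.37 to 0.10, and these 3 genes stood at 0.35, 0.11 and 0.18. The count was also 0 without the 4 libraries with the highest liver marker mean, 3 of which were Con mice at 2 weeks, and 1 without CAC mouse 3 alone. At 4 weeks limma called 0 members with 0.0273% of all genes called (5 members and 6.54% of all genes at an unadjusted p under 0.05), and the median log2 fold change was -0.05. Against NCAC mice limma called 0 members at 2 weeks (0% of all genes), where 5 members and 17.8% of all genes had an unadjusted p under 0.05. At 4 weeks it called 0 members (0.075% of all genes), where 7 members and 6.26% of all genes did, and 1 member without the 4 libraries.

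At 6 weeks transcripts of the respiratory chain were lower in CAC than in Con mice. Of the 90 members, 15 fell and 0 rose, compared with 3.09% of all genes called lower and 5.79% called in either direction. The log2 fold change was negative for 87 members, with a median of -0.25 against 0.03 over all genes tested. In 58 members every CAC mouse was below every Con mouse, which was so for 7.86% of all genes tested. The mean log2(TPM + 1) over the subunits of each complex also did not overlap, at 8.66 to 8.79 in CAC against 8.98 to 9.05 in Con mice for complex I, 9.80 to 9.97 against 10.16 to 10.24 for complex III, 10.03 to 10.11 against 10.23 to 10.30 for complex IV and 9.94 to 10.07 against 10.16 to 10.26 for complex V. None of the 15 fell by more than 1 on the log2 scale, whereas 1.57% of all genes were called with a change over 1. Without the 4 libraries, none of which belongs to a 6-week group, the estimated spread was smaller and 50 members were called lower, with 10.2% of all genes called lower. The mt- genes, which the rescaling leaves out, took 39.6% ± 3.8 (SD, n = 5) of the deposited TPM in CAC mice and 46.4% ± 1.3 (SD, n = 5) in Con mice, and on the TPM as deposited 5 members were called, with a member median of -0.08 and an all-gene median of 0.17. Dunn's test over the 12 conditions called 0 members, 58 having an unadjusted p under 0.05, and a limma fit of only the conditions compared called 62. Median-ratio scaling called 6 members, of which 2 (Sdhc and Uqcrc1) were among the 15. With that scaling and without the 4 libraries 43 were called, among them all 15. For Dunn's test, the fit of only the conditions compared and median-ratio scaling, the share of all genes called is not given here. Which members were called at 6 weeks therefore depends on the scaling and the libraries used.

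**Figure D1:**
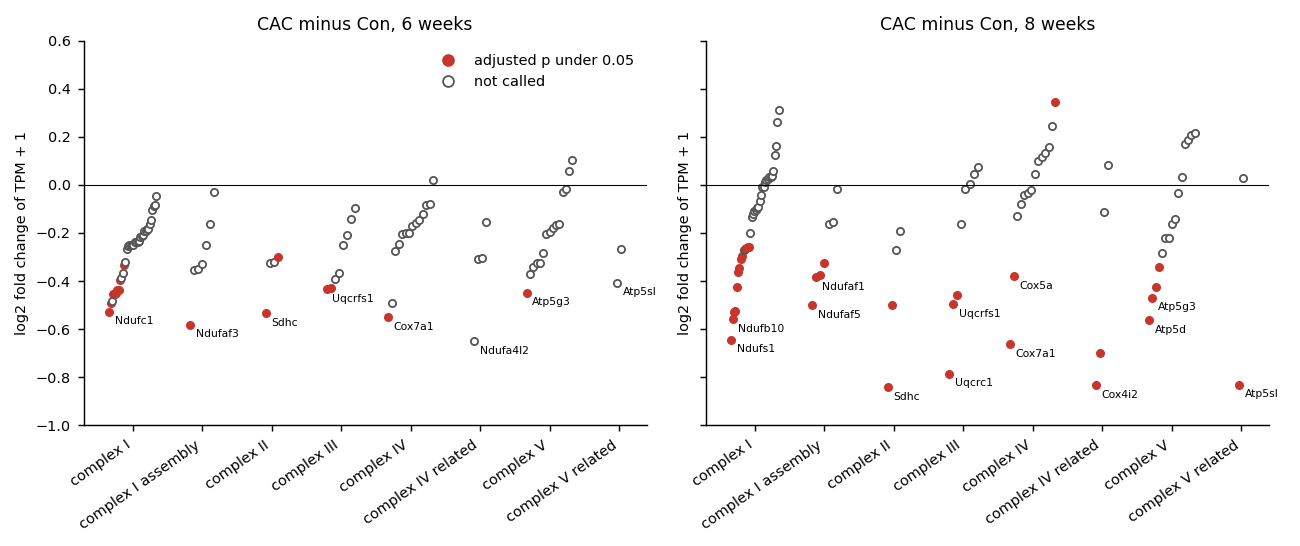
log2 fold change of TPM + 1 (CAC minus Con, vertical axis) of each member, grouped by respiratory complex on the horizontal axis, at 6 and 8 weeks; filled points were called by limma at an adjusted p under 0.05. At 6 weeks 87 of 90 points lie below 0, and at 8 weeks 62 do, with Sdhc lowest at -0.84.

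Complex II, which is also the succinate dehydrogenase of the citric acid cycle, had 2 of its 4 genes called lower at 6 weeks, beside 3.09% of all genes tested. The mean log2(TPM + 1) over its 4 subunits was 9.35 to 9.64 in CAC mice and 9.82 to 9.92 in Con mice, so that the groups did not overlap. Sdhc, a membrane anchor that binds the heme group, was at 293, 331, 388, 352 and 386 TPM in the 5 CAC mice and at 508, 490, 498, 516 and 508 in the 5 Con mice. Every CAC mouse was below every Con mouse, and the log2 fold change was -0.53 ± 0.12 (SE, adjusted p = 0.00453 by limma). Sdhb, the iron-sulfur subunit, was at 880 to 1005 TPM against 1134 to 1196, a fold change of -0.30 on the log2 scale (adjusted p = 0.0372). Sdha, the flavoprotein that oxidizes succinate, was at 898 to 1069 TPM against 1165 to 1307 without overlap, but missed the threshold with a log2 fold change of -0.32 and an adjusted p of 0.0847. The second anchor, Sdhd, overlapped between the groups (775 to 1014 TPM against 991 to 1133, adjusted p = 0.238).

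In complex I, 8 of 36 subunits fell at 6 weeks, beside 3.09% of all genes tested. In 29 the groups did not overlap, beside 7.86% of all genes in which every CAC mouse was below every Con mouse. Ndufs1, the largest iron-sulfur subunit of the NADH-oxidizing arm, was at 332, 452, 425, 384 and 477 TPM in CAC mice and at 581, 543, 593, 525 and 565 in Con mice. All CAC mice were below all Con mice, with a log2 fold change of -0.45 ± 0.12 (SE, adjusted p = 0.0111 by limma). Among the accessory subunits, Ndufc1 (-0.53, adjusted p = 0.0151), the acyl carrier protein Ndufab1 (-0.49, adjusted p = 0.00388) and Ndufv3 (-0.45, adjusted p = 0.00647) fell. Ndufv1, the core subunit that binds the flavin, stood at -0.19 and was not called. Among the 7 assembly factors only Ndufaf3 was called, with 18.9 to 25.3 TPM in CAC against 27.2 to 37.5 in Con mice (log2 fold change -0.58 ± 0.14 SE, adjusted p = 0.00496 by limma). It is a low transcript, and its groups did not overlap.

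In complex III 2 of 8 members fell at 6 weeks, Uqcrc1 (-0.43, adjusted p = 0.0479) and the Rieske iron-sulfur protein Uqcrfs1 (-0.43, adjusted p = 0.011). Beside this count and those of complexes IV and V below stand 3.09% of all genes called lower. In complex IV 1 of 14 fell, Cox7a1, which was at 1344, 1481, 1667, 1645 and 1746 TPM in CAC mice and at 2242, 2257, 2321, 2245 and 2446 in Con mice. The groups did not overlap, and the log2 fold change was -0.55 ± 0.15 (SE, adjusted p = 0.0201 by limma). Its paralog Cox7a2 stood at -0.15 (adjusted p = 0.8), the regulatory subunit Cox4i1 at -0.12 (adjusted p = 0.723) and Cox6a2 at 0.02 (adjusted p = 0.966). In complex V 1 of 15 fell, Atp5g3, at 964 to 1135 TPM against 1361 to 1490 (-0.45 ± 0.10 SE, adjusted p = 0.00332), while Atp5g2 stood at 0.10 (adjusted p = 0.731). Atp5a1 and Atp5b stood at -0.20 and -0.20 and were not called. Relative to the other tumor, NCAC mice, the pattern at 6 weeks had 18 members called lower and 0 higher, with 4% of all genes called lower and 6.45% in either direction. The largest were Ndufa4l2, a hypoxia-induced relative of Ndufa4 (-0.68, adjusted p = 0.0468), Cox7a1 (-0.57), Ndufb2 (-0.55), Ndufaf3 (-0.54), Ndufab1 (-0.53) and Sdhc (-0.52). Median-ratio scaling called 7 members against NCAC mice, of which 3 (Sdhc, Uqcrc1 and Ndufa4l2) were among the 18. The comparisons with Con and with NCAC mice share the CAC mice.

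**Figure D2:**
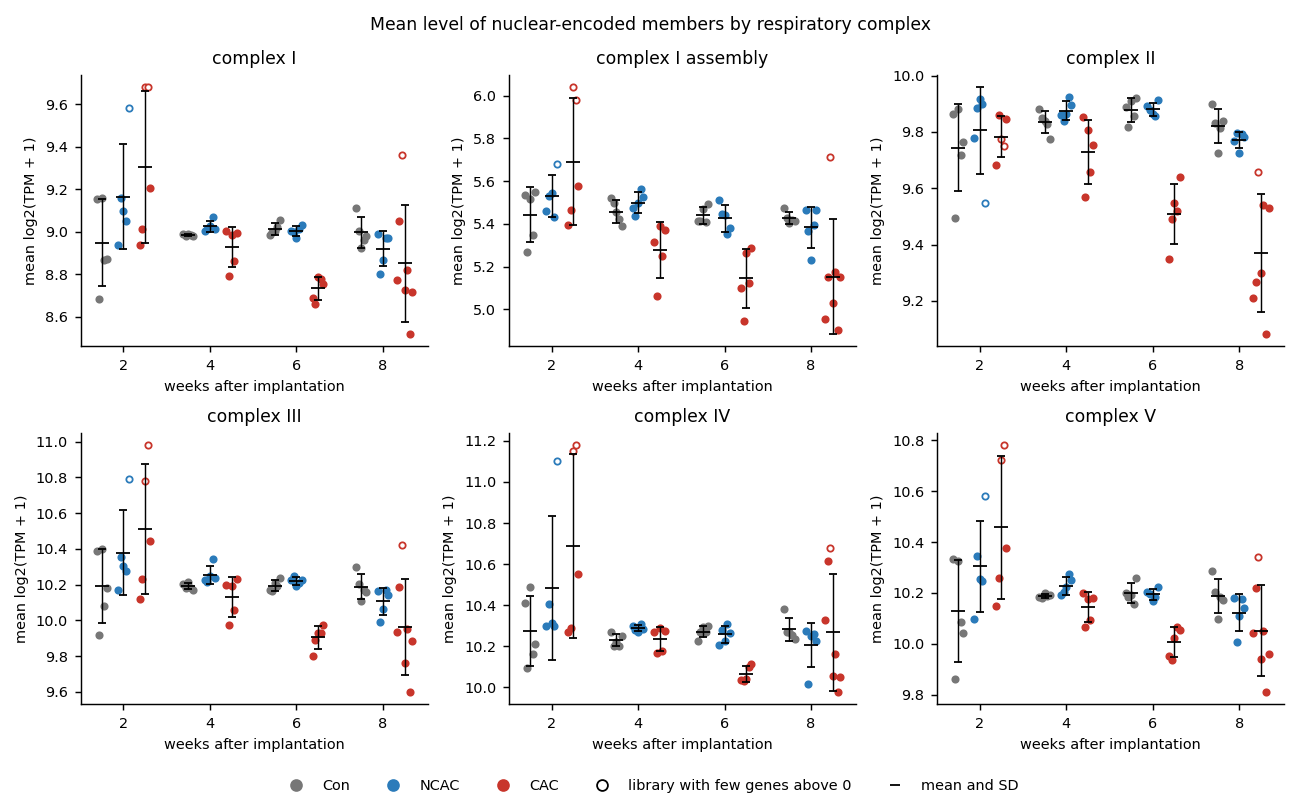
Mean log2(TPM + 1) of the tested members of each complex (vertical axis) against weeks after implantation, 1 point per mouse, with the mean and SD of Con, NCAC and CAC mice; open points are the 4 libraries with the fewest genes above 0. At 6 weeks CAC mice lie below Con mice in every panel, and at 8 weeks complex II still separates (9.08 to 9.66 in CAC, 9.73 to 9.90 in Con mice).

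At 8 weeks 30 members were called lower and 1 higher in CAC than in Con mice, with 20.4% of all genes called lower, 5.28% higher and 25.7% in either direction. Of the 90, 62 were negative, their median log2 fold change was -0.13 and their range was -0.84 to 0.35, whereas the median over all genes tested was -0.20. In 14 members every CAC mouse was below every Con mouse, compared with 10.2% of all genes. Without the 4 libraries 46 were called lower and 3 higher (25.4% of all genes lower), among them all 31 called with them, with a member median of -0.20 and an all-gene median of -0.08. Scaling the libraries by median ratios moved the all-gene median from -0.20 to 0.01 and the member median to 0.12, and 6 members were then lower and 1 higher: Sdhc, Cox4i2, Atp5sl, Uqcrc1, Ndufa4l2 and Atp5d stayed lower and Cox6a2 higher. On the TPM as deposited 15 were lower and 4 higher, and a limma fit of only the conditions compared called 12 lower and 0 higher. For these alternatives to the scaling and the fit, the share of all genes called is not given here. A direction for the members as a whole at 8 weeks therefore depends on the scaling.

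Of 10 catalytic or central subunits, all were negative at 8 weeks and 8 were called lower, and of the 7 complex I core subunits 5 were called. Beside these stand 20.4% of all genes called lower, and 21.9% of the genes with transcripts of at least 1000 bases. With median-ratio scaling Uqcrc1 alone of the 10 stayed called, and Sdhb (0.064) and Cox4i1 (0.22) were positive. In complex II the mean log2(TPM + 1) was 9.37 ± 0.21 (SD, n = 7) in CAC and 9.82 ± 0.06 (SD, n = 5) in Con mice, and 9.77 ± 0.03 (SD, n = 5) in NCAC mice. Sdhc was at 241, 244, 227, 303, 338, 226 and 364 TPM in the 7 CAC mice, at 522, 481, 470, 477 and 498 in Con mice and at 465, 500, 436, 491 and 472 in NCAC mice. No CAC mouse reached the lowest mouse of either other group, and Sdhc had the largest fall of any member (-0.84 ± 0.12 SE, a change of -44.2%, adjusted p = 4.33e-07 by limma). Sdha was at 667 to 1068 TPM (median 842) in CAC and 1110 to 1228 (median 1216) in Con mice, again without overlap (-0.50, adjusted p = 0.000331). Sdhb and Sdhd overlapped between the groups, at -0.19 (adjusted p = 0.083) and -0.27 (adjusted p = 0.142). In both, CAC mouse 3 had the highest value of all 8-week mice, 1427 TPM of Sdhb and 1956 TPM of Sdhd, and without the 4 libraries all 4 complex II genes were called lower, Sdha at -0.44, Sdhb at -0.29, Sdhc at -0.80 and Sdhd at -0.47.

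**Figure D3:**
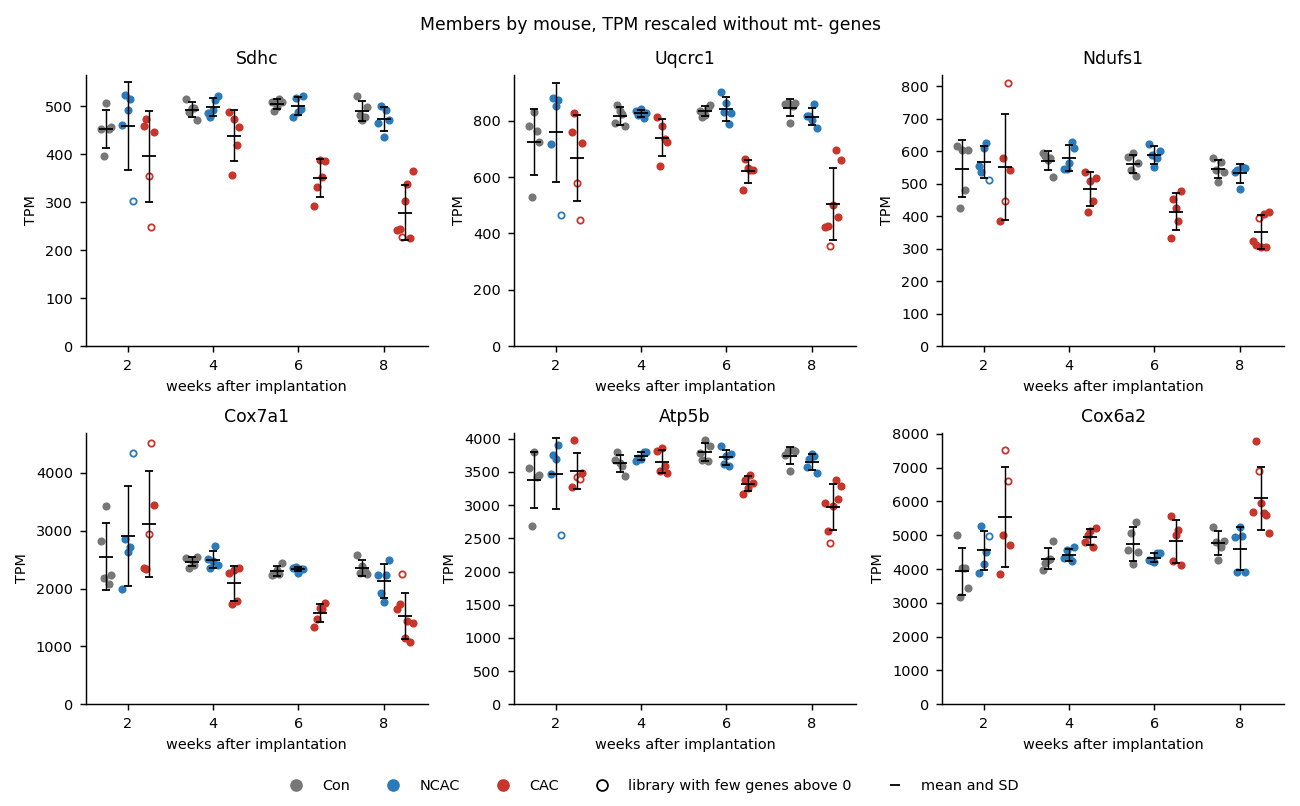
TPM, rescaled without mt- genes, of Sdhc, Uqcrc1, Ndufs1, Cox7a1, Atp5b and Cox6a2 (vertical axes, from 0) against weeks after implantation, 1 point per mouse, with group means and SD. Sdhc lies between 226 and 364 TPM in the 7 CAC mice at 8 weeks, below the 470 to 522 of Con mice, and Cox6a2 is the member of these 6 that is higher in CAC mice.

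In complex I 12 of 36 subunits and 4 of 7 assembly factors fell, beside 20.4% of all genes tested. Ndufs1 was at 325, 310, 396, 305, 407, 304 and 412 TPM in CAC mice and at 578, 540, 505, 565 and 536 in Con mice. Every CAC mouse was below every Con and every NCAC mouse (-0.64 ± 0.11 SE, adjusted p = 1.21e-05 by limma; -0.67 without the 4 libraries). The accessory subunits Ndufb10, Ndufab1 and Ndufa10 fell by 0.56, 0.53 and 0.52 on the log2 scale. Ndufv1 fell by 0.26 (adjusted p = 0.0113). Ndufaf5, which modifies the core subunit Ndufs7 during assembly, fell by 0.50 (adjusted p = 0.00156); its CAC mice ranged from 30.7 to 57.1 TPM, with mouse 3 above the Con range of 51.9 to 54.6. Ndufb9, the complex I gene with the highest level, was not called.

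In complex III the core subunit Uqcrc1 was at 423, 427, 356, 503, 696, 459 and 661 TPM in CAC mice, at 859, 865, 792, 853 and 863 in Con mice and at 818, 817, 802, 859 and 774 in NCAC mice. CAC mice did not overlap with either group, and the fall was -0.79 ± 0.13 on the log2 scale (SE, adjusted p = 6.11e-06 by limma; -0.71 without the 4 libraries). Uqcrfs1 (-0.50, and -0.62 without the 4 libraries) and Uqcrc2 (-0.46 and -0.60), the latter named after its value was seen, were also called. The small subunit Uqcr10, the most abundant complex III gene, was not.

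Complex IV did not move in 1 direction at 8 weeks: 7 of 14 members were negative and 7 positive, with a median of 0.01. Cox7a1 was at 1641, 1730, 2253, 1143, 1442, 1083 and 1406 TPM in CAC mice and at 2589, 2272, 2385, 2302 and 2246 in Con mice. The groups touched only through CAC mouse 3, and the log2 fold change was -0.66 ± 0.14 (SE, adjusted p = 0.00043 by limma), or -0.76 without the 4 libraries. Cox5a, a matrix-side subunit, fell by 0.38 (adjusted p = 0.00258), and Cox4i1 stood at -0.04 with a 95% interval of -0.27 to 0.19, but was called at -0.18 (adjusted p = 0.00813 by limma) without the 4 libraries. Cox6a2 was the 1 member called higher, at 5700, 7801, 6894, 5953, 5667, 5592 and 5073 TPM in CAC against 5257, 4811, 4264, 4654 and 4826 in Con mice. The lowest CAC mouse overlapped the highest Con mouse, and the log2 fold change was 0.35 ± 0.11 (SE, adjusted p = 0.0173 by limma); leaving out each mouse in turn kept it between 0.28 and 0.39 and ended the call in 2 of 12 cases, and it was 0.31 without the 4 libraries. Cox4i2, a low-oxygen form of Cox4i1 found mainly in lung and vessels, was at 3.17 to 9.98 TPM in CAC and 14.1 to 15.3 in Con mice (-0.83, adjusted p = 0.000427), and Ndufa4l2 was at 8.67 to 24.8 against 26.2 to 33.4 TPM (-0.70, adjusted p = 0.00818). Without the 4 libraries they stood at -0.65 and -0.54 and were still called. Both were low and did not overlap between these groups, and NCAC mice lay at 9.78 to 12.7 TPM of Cox4i2 and 19.1 to 26.0 TPM of Ndufa4l2. Of 5 endothelial markers 2 were called lower, and the log2 of their summed TPM was 6.89 to 8.40 in CAC and 8.48 to 8.64 in Con mice. The markers did not move together. Cdh5 and Kdr were lower in CAC mice without overlap, whereas Tie1, Pecam1 and Emcn overlapped. Pecam1 was at 55.5 to 134 TPM in CAC and 92.7 to 118 in Con mice, and Emcn at 12.3 to 26.6 against 15.4 to 16.6. The part of these cells in the levels of Cox4i2 and Ndufa4l2 was not tested.

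In complex V 4 of 15 members fell, beside 20.4% of all genes tested. Atp5a1 was at 2429 to 3650 TPM (median 2899) in CAC and 3674 to 4279 (median 4081) in Con mice, and Atp5b at 2425 to 3385 (median 3040) against 3516 to 3836 (median 3812). Neither overlapped, with log2 fold changes of -0.42 ± 0.10 (SE, adjusted p = 0.000923 by limma) and -0.34 ± 0.07 (SE, adjusted p = 0.000489), or -0.37 and -0.29 without the 4 libraries. Atp5d, a subunit of the central stalk, fell by 0.56 and Atp5g3 by 0.47 on the log2 scale. Atp5sl, a distant relative of the ATP synthase coupling factor gene that is not a subunit, was at 20.8 to 47.6 TPM in CAC against 53.1 to 70.7 in Con mice (-0.83, adjusted p = 8.95e-05, and -0.71 without the 4 libraries).

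Against NCAC mice at 8 weeks 21 members were called lower and 1 higher, with 16.8% of all genes called lower, 5.06% higher and 21.8% in either direction. Sdhc (-0.79, adjusted p = 2.25e-06), Uqcrc1 (-0.73), Atp5sl (-0.70), Ndufs1 (-0.61), Ndufb10 (-0.52) and Cox7a1 (-0.51) were the lowest, and Cox6a2 was higher (0.40, adjusted p = 0.00693). Cox4i2 and Ndufa4l2 were not called in it. The count fell to 4 with median-ratio scaling, which left Sdhc, Uqcrc1 and Atp5sl lower and Cox6a2 higher, and to 7 with Dunn's test and 7 with only the conditions compared. It was 36 without the 4 libraries. The share of all genes called in these fits is not given here. The 2 groups without cachexia were close to each other: limma called 0 members between NCAC and Con mice at 2, 4, 6 and 8 weeks, where 4.51%, 0%, 0% and 0% of all genes were called. At an unadjusted p under 0.05 there were 11, 0, 0 and 0 members and 12.5%, 0.757%, 1.06% and 0.498% of all genes. The median log2 fold changes were 0.21, 0.04, 0.00 and -0.06. At 2 weeks, 1 member was called without the 4 libraries.

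Within CAC mice 11 members fell from 4 to 8 weeks and 0 rose, with 3.07% of all genes called lower and 3.99% called in either direction. Sdhc (-0.67, adjusted p = 0.000354), Atp5sl (-0.61, adjusted p = 0.0186) and Uqcrc1 (-0.59, adjusted p = 0.00371) fell most, and Ndufs1, Ndufv1, Sdha, Atp5a1 and Atp5b were among the others. Dunn's test and a fit of only these conditions called 0, median-ratio scaling called 3 (Sdhc, Uqcrc1 and Atp5sl), leaving out single mice gave 3 to 18, and 30 were called without the 4 libraries. Shares of all genes called in these fits are not given here. Within NCAC and within Con mice limma called 0 members and 0% of all genes, with 2 members (1.47% of all genes) and 1 member (1.01%) at an unadjusted p under 0.05. The test of the difference itself, that is the change from 4 to 8 weeks in CAC minus that in Con mice, called 0 members where 0.0273% of all genes were called (13 members and 11.1% of all genes at an unadjusted p under 0.05), with Sdhc at -0.66 ± 0.17 (SE, adjusted p = 0.106). Without the 4 libraries it called 10, a count for which the share of all genes called is not given here. From 6 to 8 weeks it called 0 members and 0% of all genes (1 member and 5.54% of all genes unadjusted). Hence the members lower in CAC mice at 8 weeks were not shown to differ in size from those at 6 weeks.

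Several subunits exist as paralogs. How a library is scaled affects their ratio within a mouse only through the 1 added to each TPM. This weighs most where a paralog is low, as Cox4i2 is. The log2 ratio of Cox7a1 to Cox7a2 was 1.13 ± 0.05 (SD, n = 5) in Con and 1.10 ± 0.17 (SD, n = 5) in NCAC mice at 8 weeks and 0.31 ± 0.28 (SD, n = 7) in CAC mice. CAC mice ranged from -0.02 to 0.75 and lay below both groups, by 0.82 against Con mice (exact permutation test, two-sided, p = 0.00253). The same difference was -0.20 at 4 weeks, where the groups overlapped, and -0.40 at 6 weeks, with p = 0.0159 and 0.00794 by the same exact test. At 2 weeks it was -0.25 with overlap (p = 0.246 by the same exact test), and 0.002 without the 4 libraries. The ratio of Atp5g2 to Atp5g3 went the other way, by 0.29 at 4 weeks, 0.55 at 6 weeks and 0.65 at 8 weeks. At 8 weeks CAC mice ranged from -1.60 to -0.26 and overlapped the Con range of -1.59 to -1.48 through their lowest mouse. At 2 weeks the difference was 0.27 (0.18 without the 4 libraries), and over all libraries the groups overlapped at 2 and 4 weeks. The ratio of Cox4i2 to Cox4i1 differed by -0.79 from Con mice at 8 weeks (exact permutation p = 0.00884), or by -0.48 without CAC mouse 3, whose ratio of -9.73 was the lowest. Against NCAC mice that difference was -0.49 (exact permutation p = 0.183), with overlap, and -0.17 without mouse 3. Cox6a2 relative to Cox6a1 stood 0.38 higher than in Con mice (exact permutation p = 0.077). Over 8 pairs and 8 comparisons 64 tests were made. Of these, 22 had an unadjusted p under 0.05 and 0 an adjusted p under 0.05, the smallest being 0.0598. The smallest p the exact test allows is 0.00794 for 5 against 5 mice. For 7 against 5 mice the smallest p found was 0.00253, which is not the limit of the test. Without the 4 libraries 11 passed after adjustment.

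**Figure D4:**
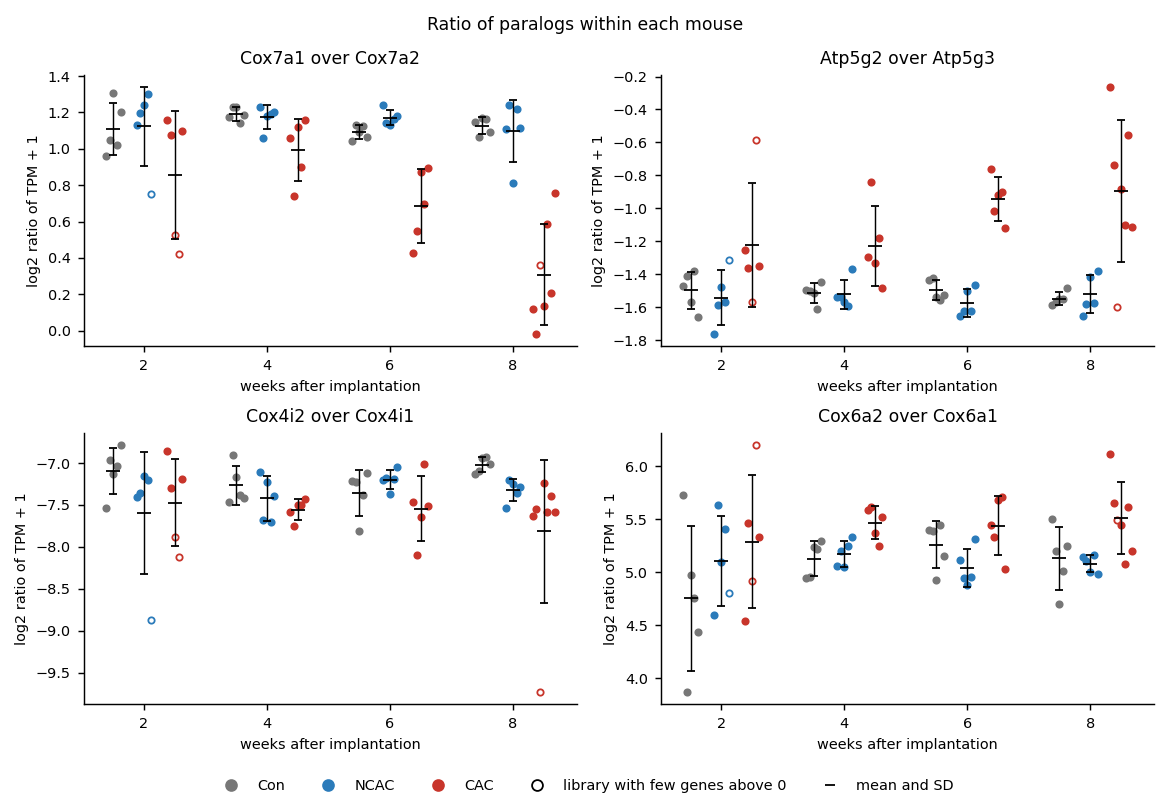
log2 ratio of the TPM of paralogous members within each mouse (vertical axis) against weeks after implantation, 1 point per mouse, with group means and SD. For Cox7a1 to Cox7a2 the CAC mean is 0.31 at 8 weeks and the Con mean 1.13; for Atp5g2 to Atp5g3 they are -0.89 and -1.55.

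The members differed by transcript length at 8 weeks, as did all genes tested. The longest coding transcript in GENCODE, matched for 91 members, had a median of 918 bases over the 89 tested members with a length and 3063 over the 13203 tested genes with one. The 49 members under 1000 bases had a median log2 fold change of -0.02 and 9 were called, and the 40 members of at least 1000 bases had a median of -0.27 and 21 were called, all lower; the 9 comprised 8 lower and Cox6a2. Over all genes tested the medians were 0.07 for the 728 under 1000 bases, of which 8.38% were called lower and 25.0% in either direction, and -0.22 for the 12475 others, of which 21.9% were called lower and 26.5% in either direction. At 6 weeks the members' medians were -0.21 and -0.32, while those of all genes were -0.05 and 0.03. Across the 89 members, which share the same libraries and are not independent, Spearman's rho between length and log2 fold change was -0.46 at 8 weeks, -0.33 at 6 weeks and -0.36 at 2 weeks. Without the 4 libraries it was -0.50, -0.33 and -0.15. Of the 10 central subunits 8 had transcripts of at least 1000 bases, and Cox5a and Cox4i1 shorter ones.

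**Figure D5:**
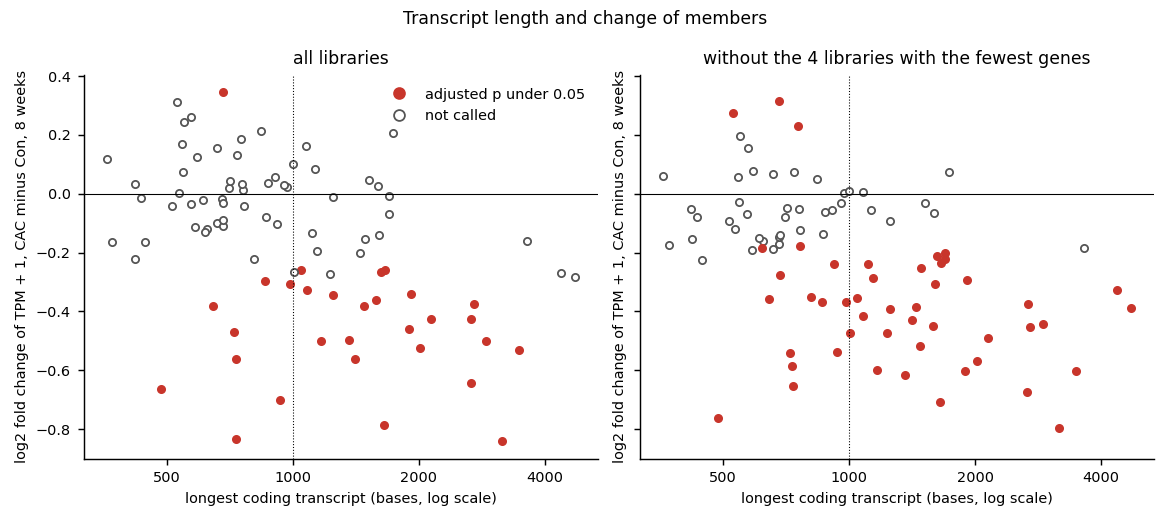
log2 fold change of TPM + 1 (CAC minus Con at 8 weeks, vertical axis) against the length of the longest coding transcript in bases (log axis), 1 point per tested member, for all libraries and without the 4 with the fewest genes above 0; the dotted line is at 1000 bases. Members of at least 1000 bases have a median of -0.27 and shorter ones of -0.02 over all libraries.

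Other mitochondrial genes were read from lists chosen by function, at 8 weeks beside the 20.4% of all genes called lower and the all-gene median of -0.20. Of 13 citric acid cycle genes 12 fell, with a median of -0.40, led by Dlst (-0.94) and the citrate synthase Cs (-0.86). Of 12 genes listed as electron carriers and shuttles 7 fell (median -0.43), among them the mitochondrial creatine kinase Ckmt2 (-0.83) and the uncoupling protein Ucp3 (-1.34). Cytochrome c1 (Cyc1, -0.72), also among the 7, is a complex III subunit that the symbol rule leaves out. Of 41 assembly factors that the symbol rule leaves out 22 fell and 1 rose (median -0.36), the largest being Taco1, which activates translation of a mitochondrial complex IV subunit (-1.08, adjusted p = 1.85e-08), and Coa5 (-0.96), and the 1 that rose being Cmc1 (0.40). Of 77 mitochondrial ribosome genes 28 fell (median -0.18), and of 12 genes of the outer membrane and import 5 did (median -0.27). Of 13 regulators of mitochondrial biogenesis 5 fell (median -0.45), Perm1 (-1.55), Ppargc1b (-1.49), Esrra (-0.85), the mitochondrial DNA factor Tfam (-0.66, adjusted p = 6.95e-08) and Gabpa (-0.45); Ppargc1a stood at -0.56 (adjusted p = 0.204) and Nrf1 at 0.03 (adjusted p = 0.906). With median-ratio scaling, in that order, 5, 6, 9, 5, 2 and 4 genes of these lists were lower at 8 weeks, and their medians were -0.14, -0.17, -0.11, 0.08, -0.01 and -0.20. At 6 weeks, where 3.09% of all genes were called lower, 3 of 13, 5 of 12, 9 of 41, 13 of 77, 0 of 12 and 1 of 13 genes of these lists fell and 0 rose, the 1 regulator being Tfam; Dunn's test called 0 in each list.

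Markers of other cell types and of fiber types were read in the same mice at 8 weeks. Sums are the log2 of the summed TPM of a list, so the most abundant genes weigh most. Slow fiber genes had 0 of 6 called and a sum of 12.2 to 13.0 in CAC and 12.2 to 12.6 in Con mice. Fast fiber genes had 1 of 7 called, higher, with sums of 16.3 to 16.7 against 16.1 to 16.2. These genes did not move together. Myh2 was at 1552 to 6186 TPM in CAC and 5531 to 7601 in Con mice, and Myh1 at 1305 to 21506 against 7288 to 10794. Tnni2 was at 8942 to 16123 against 7920 to 8961. Macrophage genes were called higher in 3 of 6 cases (7.73 to 9.24 against 7.63 to 8.12), neutrophil genes in 2 of 4 (4.02 to 6.96 against 3.13 to 4.93), and fibroblast genes lower in 4 of 5 (10.2 to 11.4 against 9.99 to 10.8, a sum made up mostly of Dcn, the 1 that was not called). Liver, erythroid and adipocyte genes had 0 called, and the liver gene Alb was at 0 in at least 1 Con and 1 CAC mouse. Their part in the members' levels was not tested.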

How the data were processed

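Diaphragm RNA-seq of 62 mice was analysed in 12 conditions, grouped by the labels' treatment and time. The authors made libraries with an Illumina TruSeq kit (the labels name a stranded mRNA kit, the study's methods another version), aligned reads to mm10 (GRCm38) with CLC Genomics Workbench, and deposited TPM per gene and mouse. The annotation release, strand use and handling of multi-mapping reads are not given in the sources used here, so values of near-identical or overlapping genes are uncertain. Each library sums to 1e+06 TPM. TPM keeps no read counts, so depth is unknown and no counting error is given. All sample columns were mapped to labels.

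TPM was rescaled to 1e+06 after removal of 37 mt- genes. limma (3.58.1, R 4.3.3, mean-dependent prior) fitted 12 condition means on log2(TPM + 1) over the 14670 genes that reached 1 TPM in 5 or more mice, 17 contrasts, two-sided, with Benjamini-Hochberg adjustment within each. A fold change on this scale understates that of low genes. The study used a Kruskal-Wallis test on log TPM followed by Dunn's test, which is an alternative here. Paralog ratios were tested by exact two-sided permutation. No libraries were identical. On simulated data for CAC against Con at 8 weeks over 14670 genes, limma called 34 of 100 genes changed by 0.5 on the log2 scale, 83 of 100 changed by 1, and 9 of 14470 unchanged ones. The simulated noise was independent between genes, with the same SD per gene in all conditions. It held no library that stood apart and no wider spread in CAC mice, so these counts do not give the error rates in the real data.

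The members and lists were chosen with earlier results of these data known. Genes are named by a rule: the 12 higher and 12 lower called members with the largest change for CAC against Con at 8 weeks, 6 and 6 at 6 weeks and for CAC against NCAC at 6 and 8 weeks, 3 and 3 elsewhere; Ndufs1, Ndufv1, Sdha, Sdhb, Uqcrc1, Uqcrfs1, Cox4i1, Cox5a, Atp5a1 and Atp5b always (1 further gene fixed here is not reported); the most abundant member of each complex; and the paralogs. Sdhd, Uqcrc2 and genes of the other lists were named after their values were seen. Lengths come from GENCODE vM21 and promoters from RefSeq. Alternatives were other scalings (TPM as deposited, median ratio, quantile), a pseudocount of 0.1, no filter, array weights, a replicate block, Dunn's test, fits of only the conditions compared, and leaving out libraries; median-ratio scaling without libraries, and the alternatives for the other mitochondrial lists, were chosen after seeing the data. Python 3.11.15 and matplotlib 3.10.9 drew the figures.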

Additional observations from a re-analysis of the deposited data

Results flagged for a closer look

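Of 132 sets of 5 to 7 mice compared, 13 held a mouse far from the others by Dixon's criterion, which chance gives in about 1 in 20 sets. Of these, 4 were mice of the 4 libraries with the fewest genes above 0. In CAC mouse 3 at 8 weeks the mean log2(TPM + 1) of the complex I assembly factors was 5.71 (the others 4.90 to 5.18), Cox4i1 was at 3533 TPM (the others 1576 to 2062) and Cox4i2 at 3.17 TPM (the others 8.21 to 9.98). In NCAC mouse 5 at 2 weeks the complex IV mean was 11.1 (the others 10.3 to 10.4).

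In Con mouse 3 at 8 weeks Sdha was at 1110 TPM, Uqcrc1 at 792 TPM and Atp5b at 3516 TPM, each the lowest of its group, whereas Con mouse 1 at 8 weeks had the highest complex IV mean, 10.4 on the log2 scale (10.3812, the others 10.2376 to 10.2698). In NCAC mouse 3 at 8 weeks Ndufs1 was lowest at 482 TPM and Ndufa4l2 at 19.1 TPM, and NCAC mouse 2 at 8 weeks had the lowest complex IV mean, 10.0153 (the others 10.2261 to 10.2719). NCAC mouse 4 at 4 weeks had the highest complex III mean, 10.3456 (the others 10.2166 to 10.2479), and Con mouse 5 at 6 weeks the highest share of rescaled TPM in the members, 8.77% (the others 8.48% to 8.55%).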

How the results depend on the processing

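Counts of members called, in either direction, that left the range within 1.5 times of the reported count are given here. They stand without the share of all genes called under each alternative. For CAC against Con at 2 weeks (51) the count was 25 with quantile normalization and 0 with Dunn's test, without the 4 libraries with the fewest genes above 0, without the 4 libraries highest in liver markers, with median-ratio scaling without the first 4, and with only the conditions compared. Array weights gave 23 for CAC against NCAC and 7 for NCAC against Con at 2 weeks (1 without the 4 libraries). At 4 weeks CAC against Con had 1 with array weights, and CAC against NCAC had 2 with weights and 1 without the 4 libraries, also with median-ratio scaling. At 6 weeks CAC against Con (15) had 5 with TPM as deposited, 6 with median-ratio scaling, 65 with weights, 0 with Dunn's test, 50 without the 4 libraries, 43 with median-ratio scaling without them, and 62 with only the conditions compared; CAC against NCAC (18) had 7, 7, 65, 0, 49, 39 and 61. At 8 weeks CAC against Con (31) had 19 as deposited, 7 with median-ratio scaling, 57 with weights, 49 without the 4 libraries and 12 with only the conditions compared; CAC against NCAC (22) had 4 with median-ratio scaling, 48 with weights, 7 with Dunn's test, 36 without the 4 libraries and 7 with only the conditions compared. The change from 4 to 8 weeks in CAC minus Con mice (0) had 32 with weights, 10 without the 4 libraries and 2 with median-ratio scaling without them. Within CAC mice, 8 against 4 weeks (11) had 4 as deposited, 3 with median-ratio scaling, 6 with no filter, 50 with weights, 7 with the replicate block, 0 with Dunn's test, 30 without the 4 libraries, 22 with median-ratio scaling without them and 0 with only the conditions compared. The causes were not tested.

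Leaving out each mouse in turn gave 1 (without CAC mouse 3) to 63 members for CAC against Con at 2 weeks, 0 to 22 for CAC against NCAC and 0 to 1 for NCAC against Con, 9 to 16 and 11 to 15 for CAC against Con and against NCAC at 6 weeks, 26 to 36 (36 without CAC mouse 3) and 19 to 28 at 8 weeks, 0 to 1 for the change in CAC minus Con mice, 3 to 18 within CAC mice and 0 to 12 paralog ratios (11 without the 4 libraries).

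Replicate numbers did not pair the mice: of 60 same-numbered pairs 18 had deviations correlated above 0.1 (median -0.02), and the replicate block moved no count but that within CAC mice. The log2 fold changes that changed sign were all of genes not called in the reported fit. For CAC against Con at 6 weeks they were, as deposited, 0.049 for Cox4i1, 0.084 for Ndufb9, 0.0086 for Cox6a1 and 0.021 for Cox7a2, with quantile normalization 0.034 for Ndufb9, and for Cox6a2 -0.0048 with median-ratio scaling, -0.00067 with it and without the 4 libraries, and -0.037 to 0.074 leaving out each mouse. At 8 weeks median-ratio scaling gave 0.064 for Sdhb, 0.22 for Cox4i1, 0.24 for Uqcr10, 0.22 for Cox6a1, 0.10 for Cox6b2, 0.13 for Cox6b1 and 0.24 for Ndufa4, and without the 4 libraries 0.024 for Uqcr10 and 0.036 for Cox6a1. TPM as deposited gave 0.058 for Cox4i1, 0.083 for Uqcr10, 0.064 for Cox6a1 and 0.078 for Ndufa4. The replicate block gave 0.041 for Cox4i1, 0.12 for Uqcr10 and 0.15 for Ndufa4, quantile normalization -0.0059 for Ndufb9, 0.029 for Cox6a1 and 0.12 for Cox6b2, array weights -0.077 for Ndufb9, -0.12 for Cox7a2 and -0.044 for Cox8b, and leaving out the 4 libraries -0.080 for Ndufb9. Leaving out each mouse gave -0.18 to 0.016 for Cox4i1, -0.080 to 0.053 for Ndufb9, -0.099 to 0.043 for Uqcr10, -0.090 to 0.080 for Cox6a1 and -0.15 to 0.068 for Ndufa4.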
